A study of Mus musculus with 16 samples.

Results

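The 10 genes of iron handling analysed here, Ftl1, Fth1, Tfrc, Slc40a1, Slc11a1, Slc11a2, Hmox1, Trf, Cp and Steap3, were followed across abdominal tumors of mice given vehicle or interleukin (IL)-33. They were chosen by name, and all 10 were found among the 22298 genes of the count tables. In each of the 16 tumors every one of them had reads, the lowest count being 103, for Slc40a1. A minimum of 10 counts, summed over the tumors, left 16817 genes for testing, all 10 members included.

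The tumors grew in 6-week-old mice labelled WT after intraperitoneal injection of 500000 MFC cells, a mouse forestomach carcinoma line used as a model of peritoneal metastasis of gastric cancer. The vehicle group received PBS and the IL-33 treatment group 20 μg/kg of IL-33, both into the peritoneal cavity every 2 days, and 8 tumors of each group were sequenced as poly(A)-selected RNA. The comparison asks how the transcripts of the tumor and its microenvironment respond to local IL-33. Whole tumor tissue was taken, so a level mixes cancer cells with host cells, and fewer cells of a type cannot be told apart from less RNA per cell. The replicate numbers name separate tumor samples, but the sources used here do not say how many mice the 8 tumors of a group came from. For the abdominal model the methods of the study give fewer than 8 mice per group, so tumors of a group may share a mouse. Tumors that share a mouse would make p-values too small, since these measure the spread between tumor samples.

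The vehicle libraries held 14139268 to 24290794 counts and the IL-33 libraries 16569613 to 24288893. Levels are given as CPM, the count of a gene relative to the total of its library. Of the genes of epithelial cells, Krt8 and Krt19 were present in every tumor (at least 180.8 and 44.5 CPM), whereas Epcam was at 2.40 CPM or less, and Cdh1 at 3.01 CPM or less, in all tumors other than IL-33 replicate 7. Vehicle replicate 4 and IL-33 replicate 7 stood apart from the rest. Their TMM scaling factors (0.64 and 1.24) were the extremes of the 16, and the comparisons of the members were therefore also made without both.

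Cells take up iron as transferrin, the plasma carrier encoded by Trf, which binds the transferrin receptor (Tfrc) and enters acidified endosomes. There the reductase STEAP3 reduces the ferric iron, and the transporter DMT1 (Slc11a2) or, in the phagosomes of macrophages, NRAMP1 (Slc11a1) carries the ferrous iron across the membrane. Surplus iron is stored in ferritin, a cage of light (Ftl1) and heavy (Fth1) chains, or leaves through ferroportin (Slc40a1) with the help of the ferroxidase ceruloplasmin (Cp), while heme oxygenase 1 (Hmox1) opens the heme ring and frees its iron. Macrophages that clear old red blood cells are known for high HMOX1 and ferroportin.

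Iron regulatory proteins bind a short hairpin, the iron-responsive element, when iron is scarce. Bound ahead of the coding sequence it holds back translation, as in ferritin and ferroportin, and bound behind it protects the message, as in Tfrc. The elements of the members are shown because they link the storage and uptake genes to a common sensor. The search asked for a C, 5 bases, the loop CAGTGN with a last base other than G, and 5 bases that pair with the former 5, G-U pairs allowed, on the sense strand of the protein-coding transcripts of GENCODE M21 (GRCm38). The loop is in capitals.

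Ftl1, 5′ UTR, chr7:45459779-45459807, minus strand: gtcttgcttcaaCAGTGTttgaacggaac
Fth1, 5′ UTR, chr19:9982732-9982760, plus strand: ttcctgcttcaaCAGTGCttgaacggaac
Slc40a1, 5′ UTR, chr1:45925465-45925493, minus strand: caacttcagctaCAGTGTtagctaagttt
Tfrc, 3′ UTR, chr16:32631219-32631247, plus strand: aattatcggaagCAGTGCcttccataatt
Tfrc, 3′ UTR, chr16:32631598-32631626, plus strand: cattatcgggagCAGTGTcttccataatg
Tfrc, 3′ UTR, chr16:32631663-32631691, plus strand: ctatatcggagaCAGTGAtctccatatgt
Tfrc, 3′ UTR, chr16:32631710-32631738, plus strand: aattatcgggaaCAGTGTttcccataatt

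Such a match lay in the 5′ UTR of 23 of 21698 protein-coding genes (0.106%), 3 of them members, and in the 3′ UTR of 100 (0.461%), of which Tfrc was the 1 member, with 4 matches. Slc11a2 has transcripts known for an element with an interrupted stem, a form that these letters do not find. A match is a description of the sequence and not a measure of binding.

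Compared per kilobase of the principal transcript, the members spanned a wide range of abundance. Ftl1 had a median of 3507 CPM per kb over the 16 tumors and Fth1 of 2391, followed by Hmox1 at 145.6 and Trf at 39.3. Cp (20.99 CPM per kb), Slc11a1 (18.3), Slc11a2 (16.5) and Steap3 (16.4) came next, and Tfrc (6.92) and Slc40a1 (5.26) were the lowest. Ftl1 exceeded Fth1, and Steap3 exceeded Tfrc, in 16 of 16 tumors. The order of the ferritins depends on the lengths used, 0.97 kb for Ftl1 and 1.49 kb for Fth1, the longer of its 2 principal transcripts. Before the division by length, Fth1 had slightly more counts over all tumors, 1079866 against 1059276 for Ftl1. Neighbors among Cp, Slc11a1, Slc11a2 and Steap3 changed places between tumors, as did Tfrc and Slc40a1, with Tfrc the higher of the pair in 9 of 16, so that these orders are within the spread.

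No member differed between the groups at an adjusted p under 0.05 (edgeR, adjusted over 16817 genes), where the adjusted p-values ran from 0.481 (Ftl1) to 0.992 (Tfrc). None of the 10 had an unadjusted p under 0.05 either, against 11.2% of all genes tested. Across all genes 0 passed the adjusted threshold with edgeR, with DESeq2 or with limma voom. The values of the groups overlapped for each member, as they did for every gene tested (0% without overlap). The median log2 fold change (IL-33 over vehicle) was −0.18 over the members and 0.06 over all genes. Without vehicle replicate 4 and IL-33 replicate 7 these medians were −0.04 and 0.008.

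**Figure D1:**
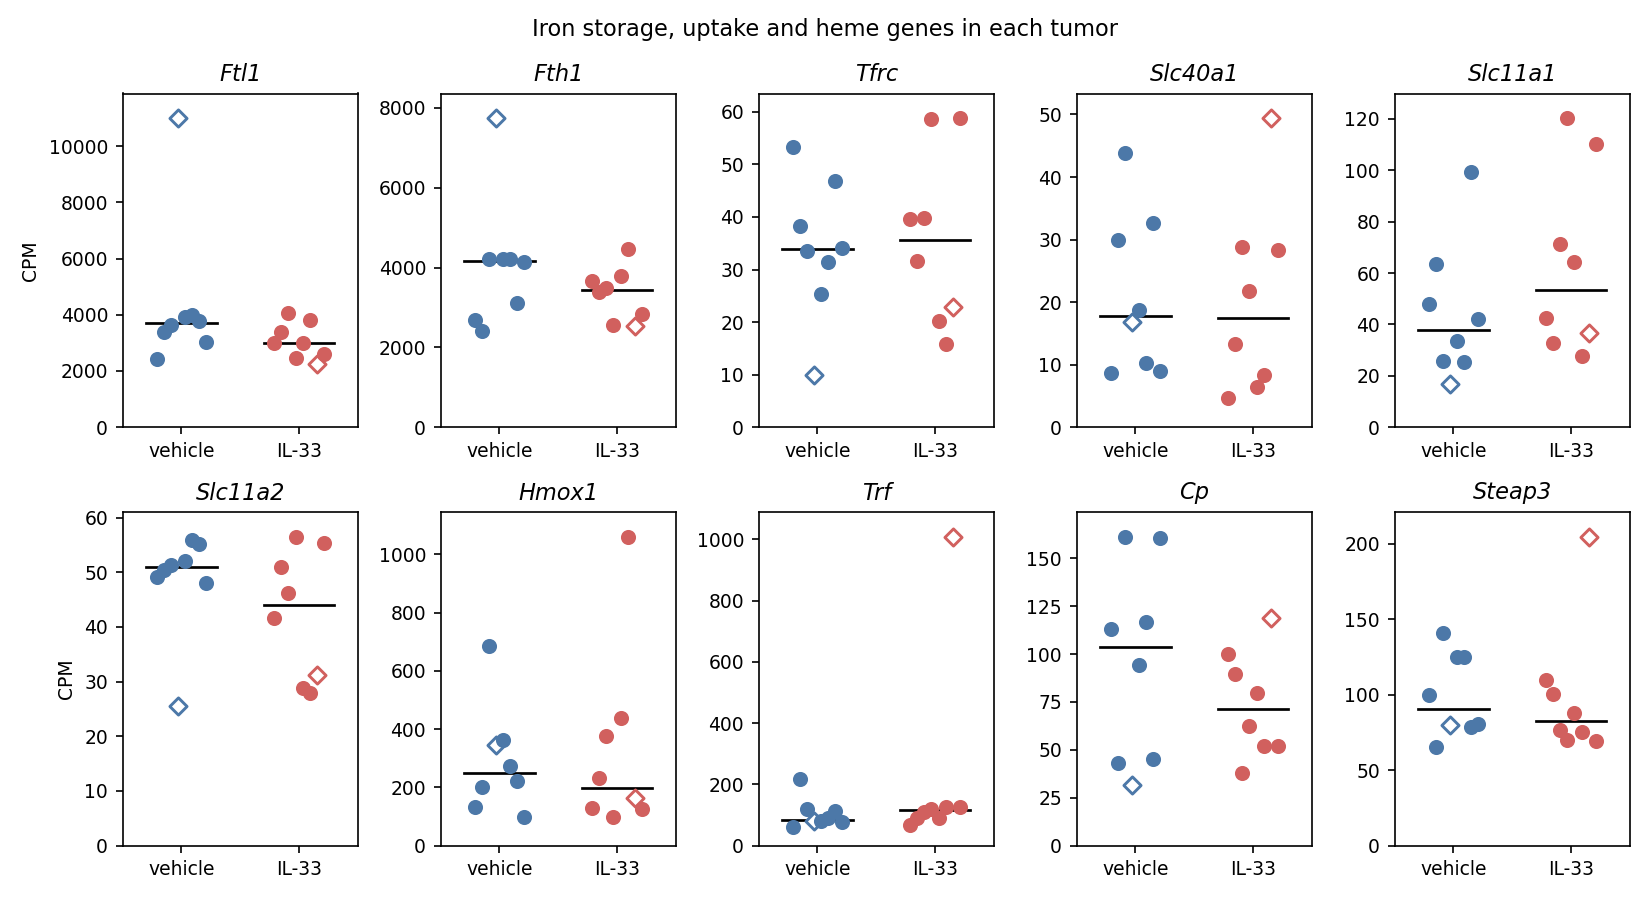
Level of each member (CPM, linear axis from 0) in the 8 vehicle tumors (blue) and the 8 IL-33 tumors (red); bars mark the group medians and open diamonds vehicle replicate 4 and IL-33 replicate 7. The groups overlap in every panel, and an open diamond is the highest point for Ftl1, Fth1, Slc40a1, Trf and Steap3.

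Ferritin light chain, Ftl1 (chromosome 7, 45457944 to 45459884), was measured at 2430 CPM in the lowest, 3706 in the median and 10994 in the highest vehicle tumor, and at 2234, 2992 and 4058 CPM in the IL-33 tumors. The highest vehicle tumor was replicate 4, where Ftl1 was the gene with the most reads of all, and the other 7 ended at 3996 CPM, below the highest IL-33 tumor. Its log2 fold change, with a standard error of 0.38, was −0.75 (adjusted p = 0.481, edgeR). Without vehicle replicate 4 it was −0.16 (adjusted p = 0.927, edgeR), and without vehicle replicate 4 and IL-33 replicate 7 it was −0.07.

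Ferritin heavy chain, Fth1 (chromosome 19, 9980598 to 9985098), carries the ferroxidase centre of the cage. The lowest, median and highest vehicle tumor had 2419, 4168 and 7743 CPM, and the IL-33 tumors had 2535, 3435 and 4455 CPM. Again vehicle replicate 4 was the highest tumor, 1.88 times the median of the other 7, and IL-33 replicate 6 alone of its group exceeded the mean of the vehicle tumors, 4091 ± 1653 CPM (SD, n = 8). A log2 fold change of −0.47 ± 0.32 (standard error; edgeR, adjusted p = 0.626) became −0.09 without vehicle replicate 4 and −0.01 without both tumors. Together the 2 chains took between 0.477% and 1.87% of all counts of a tumor, the extremes being IL-33 replicate 7 and vehicle replicate 4.

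A protein-coding copy of the light chain, Ftl1-ps1, had 5947 counts over all tumors against 1059276 for Ftl1, between 0.338% and 0.864% of the Ftl1 count in a tumor. It too was highest in vehicle replicate 4, at 76.4 CPM. Reads of the near-identical copies can be assigned to either gene, so the value of the copy is uncertain, and its count is small beside that of Ftl1. Fth-ps2, Fth-ps3 and Ftl1-ps2, further copies named in the annotation, were not analysed here.

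The transferrin receptor, Tfrc (chromosome 16, 32608920 to 32632794), lay at 9.97, 33.8 and 53.4 CPM in the lowest, median and highest vehicle tumor and at 15.7, 35.6 and 58.8 CPM in the IL-33 tumors. The lowest of all 16 was vehicle replicate 4, the tumor with the highest ferritin, and the highest were IL-33 replicates 8 and 4. Group means of 34.1 ± 13.2 and 35.9 ± 16.5 CPM (SD, n = 8 each) differed by less than either spread. The fitted log2 fold change was 0.02 ± 0.27 (standard error) with all tumors and 0.01 ± 0.24 without vehicle replicate 4 and IL-33 replicate 7. Its sign depended on the scaling, since the difference of mean log2 levels was 0.06 on CPM and −0.030 on TMM-scaled CPM.

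Slc11a2 (chromosome 15, 100387898 to 100425072), the endosomal transporter, spanned the least over the 16 tumors, 2.21 times from the lowest to the highest. Without vehicle replicate 4 and IL-33 replicate 7, Ftl1 (1.67 times) and Fth1 (1.84) spanned less than Slc11a2 (2.03). In the vehicle group it was 25.6 CPM in replicate 4 and between 48.1 and 55.9 CPM in the other 7 tumors. The IL-33 tumors covered 27.9 to 56.5 CPM around a median of 44.0, and 5 of them (replicates 1, 3, 5, 6 and 7) were below all vehicle tumors other than replicate 4. It differed by −0.27 ± 0.15 (log2 fold change ± standard error; edgeR, adjusted p = 0.558), and by −0.22 ± 0.13 without both tumors. A two-sided exact permutation test on unscaled levels, as log2(CPM + 0.5), had p = 0.315, and p = 0.119 without both.

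Slc11a1 (chromosome 1, 74375195 to 74386062), the transporter of the macrophage phagosome, was measured at 16.97, 37.9 and 99.3 CPM in the lowest, median and highest vehicle tumor and at 27.6, 53.4 and 120.3 CPM in the IL-33 tumors. IL-33 replicates 4 and 8 were above every vehicle tumor, and 4 IL-33 tumors exceeded the mean of the vehicle tumors, 44.3 ± 26.7 CPM (SD, n = 8). The estimate of 0.46 ± 0.34 (log2 fold change ± standard error; edgeR, adjusted p = 0.668) was 0.49 without both tumors and 0.71 without vehicle replicate 7 (unadjusted p = 0.0386, adjusted p = 0.437, edgeR).

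Steap3 (chromosome 1, 120190757 to 120272705), the endosomal ferric reductase, ran from 65.0 over 90.2 to 140.9 CPM in vehicle tumors and from 69.6 over 82.4 to 204.6 CPM in IL-33 tumors. The top value belonged to IL-33 replicate 7, and the other 7 IL-33 tumors reached 109.4 CPM. Group means were 99.3 ± 27.8 and 99.2 ± 45.0 CPM (SD, n = 8 each). On the log2 scale the fold change was −0.13 ± 0.21 (standard error; edgeR, adjusted p = 0.883), and −0.25 ± 0.19 without both tumors.

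Transferrin, Trf (chromosome 9, 103204001 to 103230444), is secreted mainly by the liver. In the vehicle group it was at 62.5, 84.9 and 216.1 CPM in the lowest, median and highest tumor, and in the IL-33 treatment group at 67.2, 115.6 and 1009 CPM. IL-33 replicate 7 held the highest value, 9.14 times the median of the other 7, which ended at 127.3 CPM, and the highest vehicle tumor was replicate 2. A log2 fold change of 0.85 ± 0.47 (standard error; edgeR, adjusted p = 0.539) turned to −0.04 without IL-33 replicate 7 and to −0.01 without both tumors. In vehicle replicate 2 the sum of 8 hepatocyte genes was also the highest of the 16 tumors, 34.8 CPM with Alb at 22.9, and it was 26.0 CPM in IL-33 replicate 7, where Alb was at 0.285 and Ahsg at 14.2. In the other 14 tumors that sum was 7.85 CPM or less. The part of such cells in the Trf level was not tested.

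Ferroportin, Slc40a1 (chromosome 1, 45908068 to 45926523), the only known cellular iron exporter, varied widely within both groups. It was 8.64, 17.7 and 43.9 CPM in the lowest, median and highest vehicle tumor, and 4.68, 17.5 and 49.4 CPM among the IL-33 tumors. IL-33 replicates 1, 5 and 6 were below every vehicle tumor, whereas IL-33 replicate 7 was above all of them. Means of 21.2 ± 12.9 and 20.1 ± 15.2 CPM (SD, n = 8 each) did not differ beyond this spread, and the log2 fold change was −0.24 ± 0.44 (standard error; edgeR, adjusted p = 0.908), or −0.44 ± 0.46 without both tumors.

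Ceruloplasmin, Cp (chromosome 3, 19957054 to 20009145), oxidizes the iron that ferroportin releases. The vehicle tumors ran from 31.7 over 103.7 to 161.3 CPM and the IL-33 tumors from 37.9 over 71.2 to 118.9 CPM. A single IL-33 tumor, replicate 7, was above the vehicle median, and vehicle replicate 4 was the lowest of the 16. Fitted over all tumors the log2 fold change was −0.44 ± 0.31 (standard error; edgeR, adjusted p = 0.644), and it was −0.60 ± 0.31 without both, where the exact permutation test gave p = 0.153. Cp overlaps Hps3 on the opposite strand (9654 counts over all tumors against 25833 for Cp), and since the use of strand in counting is not given in the sources used here, some reads of either could be counted for the other.

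Hmox1 (chromosome 8, 75093621 to 75100589), which breaks down heme, had the widest span of the members when both tumors were left out, 10.9 times from the lowest to the highest tumor. It was measured at 97.1, 249.1 and 685.4 CPM in the lowest, median and highest vehicle tumor and at 99.1, 199.2 and 1061 CPM in the IL-33 tumors. The highest were IL-33 replicate 6 and vehicle replicate 3, and 3 IL-33 tumors exceeded the mean of the vehicle tumors, 290.2 ± 184.9 CPM (SD, n = 8). Its log2 fold change was 0.13 ± 0.54 (standard error; edgeR, adjusted p = 0.964) with all tumors, 0.42 ± 0.56 without both, and −0.50 ± 0.45 without IL-33 replicate 6.

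**Figure D2:**
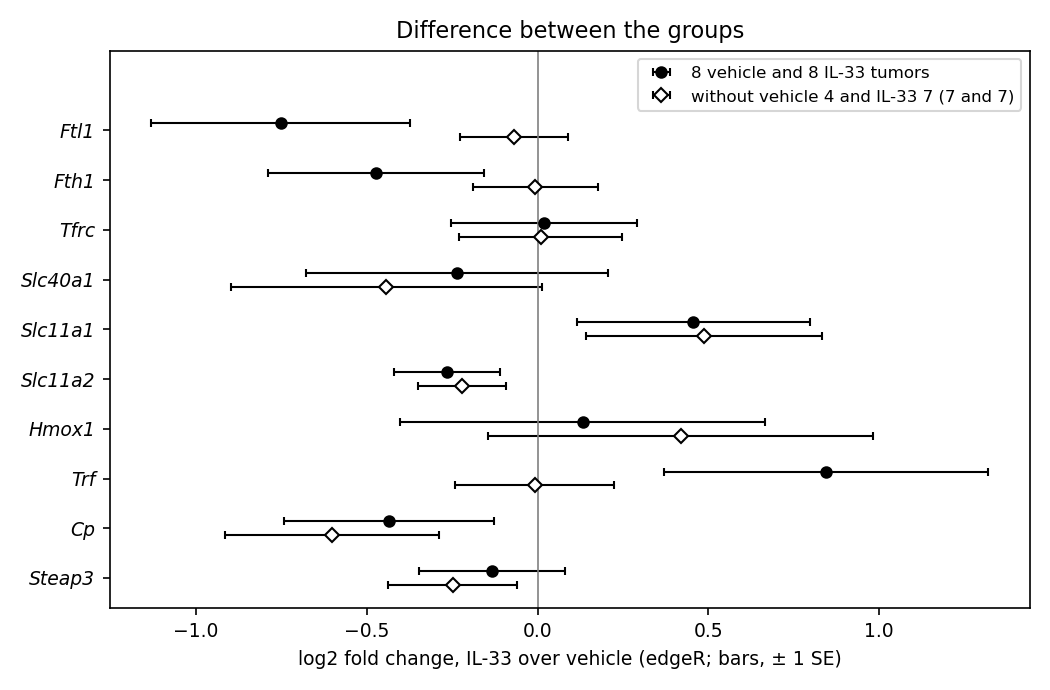
Log2 fold change (IL-33 over vehicle, edgeR, bars of ± 1 standard error) of each member with all 16 tumors (filled circles) and without vehicle replicate 4 and IL-33 replicate 7 (open diamonds). Ftl1 moves from −0.75 to −0.07 and Trf from 0.85 to −0.01, and no member passes an adjusted p of 0.05 in either fit.

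In vehicle replicate 4, 2 members were above and 4 below all other vehicle tumors. Ftl1 was at 3.02 times and Fth1 at 1.88 times the median of the other 7, while Cp (0.281 times), Tfrc (0.293), Slc11a1 (0.403) and Slc11a2 (0.498) were below each of them. The members with the shortest principal transcripts were those that were high, 0.968 kb for Ftl1 and 1.49 kb for Fth1. The 4 that were low had 2.31 to 4.89 kb. Steap3, the longest member at 5.16 kb, was within the range of the other vehicle tumors (0.801 times). So were Slc40a1 (3.37 kb, 0.896 times), Trf (2.57 kb, 0.885 times) and Hmox1 (1.57 kb, 1.54 times). Over the genes tested with a mean of at least 1 CPM, this tumor differed from its group by a median of 0.00 (log2) in the third with the shortest exons and of −1.28 in the third with the longest, a gap of 1.28 that lay between −0.24 and 0.64 in the other 15 tumors. Its red blood cell genes summed to 12756 CPM (Hba-a1 at 8543 and Hbb-bs at 3558) against 169.5 to 1065 in the other vehicle tumors. The neutrophil genes summed to 448.7 CPM against 29.3 to 100.2, mostly from S100a9 (249.0), S100a8 (104.8) and Retnlg (85.9). Of the rest of that list, Cxcr2 (7.07 CPM) was within the range of the other vehicle tumors. Ngp (1.63) and Mpo (0.354) were just above that range, and Camp and Elane had no count. The part of transcript length and of blood in the member levels was not tested.

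In IL-33 replicate 7, Trf (9.14 times), Slc40a1 (3.72), Steap3 (2.67) and Cp (1.90) were above, and Fth1 (0.727) and Ftl1 (0.745) below, all other IL-33 tumors. The sum of 12 genes of uterus, oviduct and ovary was 2297 CPM in this tumor and 15.8 to 28.3 CPM in the other 15. Highest of them in this tumor were Ovgp1 at 922.5, Cyp11a1 at 375.6, Inha at 304.9 and Esr1 at 249.5 CPM. The proliferation genes were at 422.9 CPM in sum, the lowest of the 16, where the remaining 15 had 703.4 to 2521 CPM. Their part in the member levels was not tested.

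Ratios of a pair of members within one tumor do not depend on the scaling between tumors. They are not free of differences by transcript length, such as the gap of 1.28 in vehicle replicate 4. Tfrc (4.89 kb) and Fth1 (1.49 kb), for example, differ in length, and the part of length in the ratios was not tested. The Slc11a1 to Slc11a2 ratio, phagosomal over endosomal transporter, was −0.30 ± 0.68 on the log2 scale in the vehicle group and 0.43 ± 0.64 in the IL-33 treatment group (SD, n = 8 each). It was higher than the vehicle mean in 7 of 8 IL-33 tumors, a difference of 0.74 (two-sided exact permutation test, p = 0.0437, adjusted p = 0.175 over 4 ratios). The groups overlapped, since vehicle replicate 7 reached 0.85 and IL-33 replicate 2 fell to −0.64. Without vehicle replicate 4 and IL-33 replicate 7 the difference was 0.72 (exact permutation test, p = 0.0787), so the call at an unadjusted 0.05 did not hold. It was also lost in 10 of the 16 fits that left out a single tumor (exact permutation p up to 0.0831).

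The 3 other ratios did not differ beyond the spread. The light chain ran close to the heavy chain, with a log2 ratio of Ftl1 to Fth1 of 0.03 ± 0.35 in the vehicle group and −0.12 ± 0.18 in the IL-33 treatment group (SD, n = 8 each), between −0.45 and 0.51 over all tumors (exact permutation test, p = 0.282). Uptake against export, Tfrc to Slc40a1, was at 0.79 ± 1.16 and 1.09 ± 1.18 (SD, n = 8 each; exact permutation test, p = 0.61). Uptake against storage, Tfrc to Fth1, was at −6.95 ± 1.23 and −6.66 ± 0.90 (SD, n = 8 each; exact permutation test, p = 0.613), with the lowest value of −9.60 in vehicle replicate 4, and its difference of 0.30 turned to −0.06 without both tumors.

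**Figure D3:**
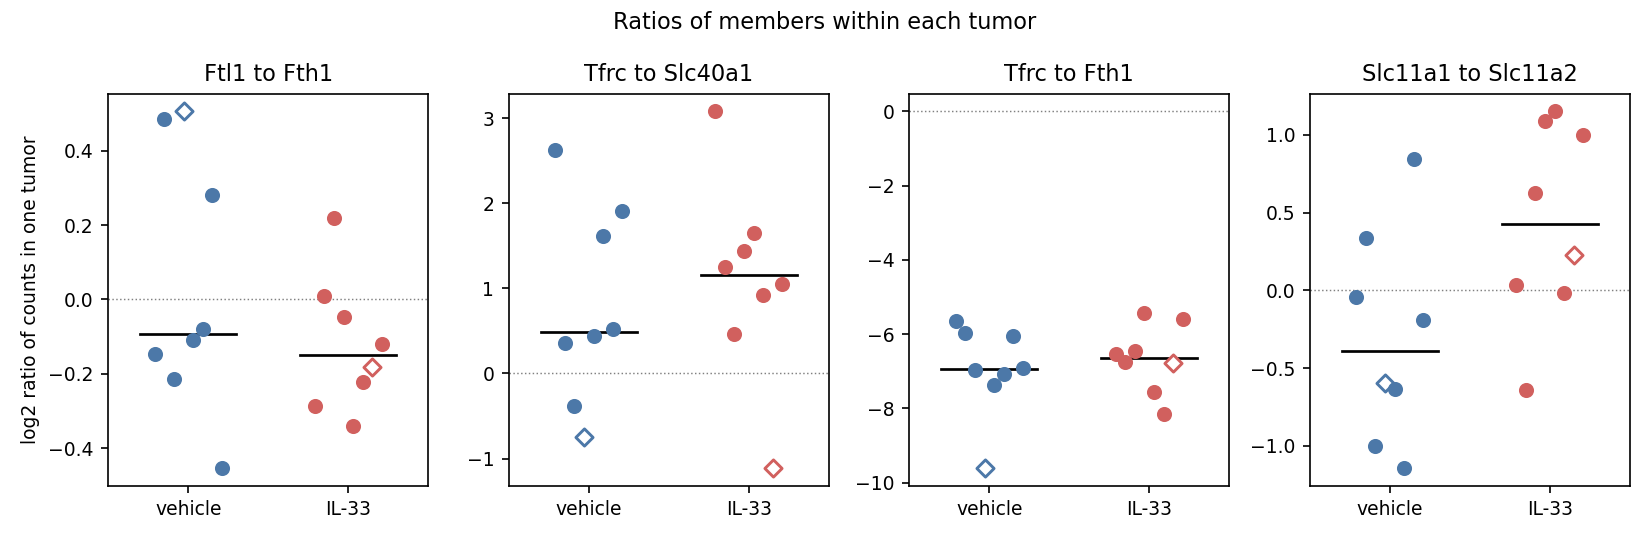
Log2 ratio of the counts of 2 members in each of the 8 vehicle (blue) and 8 IL-33 tumors (red); bars mark the group medians and open diamonds vehicle replicate 4 and IL-33 replicate 7. The Slc11a1 to Slc11a2 ratio is above the vehicle mean of −0.30 in 7 of 8 IL-33 tumors, and the groups overlap in each panel.

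Levels of several members varied together over the tumors. For each of the 45 pairs, the log2 CPM (scaled by TMM, the trimmed mean of M-values) was compared over tumors by a permutation test adjusted over the pairs. With all 16 tumors 3 pairs passed an adjusted p of 0.05, and without vehicle replicate 4 and IL-33 replicate 7 there were 12, 6 with a positive and 6 with a negative r, the 3 included. This comparison was added after the values had been seen.

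Ftl1 and Fth1 varied in the same direction (r = 0.92 and rho = 0.76, n = 16, permutation p = 1e-05, the smallest the permutations can give, and 0.00077, adjusted 0.00045 and 0.0115), and r was 0.71 without both tumors (permutation p = 0.00484, adjusted p = 0.0311), which are also the 2 farthest from the median of Ftl1. Within the vehicle group, with replicate 4 kept, r was 0.92 (exact permutation p = 0.0123). Within the IL-33 treatment group, with replicate 7 kept, r was 0.91 (exact permutation p = 0.00253). Hmox1 varied in the same direction as both chains, though neither r passed the adjustment over 16 tumors. With Fth1 it had r = 0.63 (permutation p = 0.00726, adjusted p = 0.0510) and rho = 0.65 (permutation p = 0.00802, adjusted p = 0.0451). Without both tumors r with Fth1 was 0.68 (adjusted p = 0.0337, permutation test). Within the groups Hmox1 and Fth1 had r = 0.58 (vehicle, exact permutation p = 0.123) and 0.84 (IL-33, exact permutation p = 0.00997). Its r with Ftl1 was 0.59 over 16 tumors (permutation p = 0.0123, adjusted p = 0.0614; rho = 0.80, permutation p = 0.00045, adjusted p = 0.0101) and 0.78 without both tumors (permutation p = 0.00113, adjusted p = 0.0127). Within the vehicle group it was 0.60 (exact permutation p = 0.0933) and within the IL-33 treatment group 0.80 (exact permutation p = 0.0171).

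Tfrc varied against ferritin and Hmox1. Between Fth1 and Tfrc r was −0.60 and rho −0.60 over 16 tumors (permutation p = 0.0106 and 0.0168, adjusted 0.0597 and 0.0659) and r was −0.80 without both tumors, again the 2 farthest from the median of Fth1 (permutation p = 0.0006, adjusted p = 0.0126). Within the vehicle group, with replicate 4 kept, r was −0.91 (exact permutation p = 0.00694). Within the IL-33 treatment group r was −0.36 (exact permutation p = 0.368). The difference between the groups was not tested. For Tfrc and Hmox1 r was −0.64 and rho −0.70 (permutation p = 0.00785 and 0.00326, adjusted 0.0510 and 0.0244), and r was −0.78 without both tumors (adjusted p = 0.0126, permutation test). Leaving out vehicle replicate 4 and IL-33 replicate 6, the 2 farthest from the median of Tfrc, gave r = −0.43 (permutation p = 0.122). Vehicle replicate 4 was left out for the r of −0.78 as well, so the relation of Tfrc and Hmox1 rests in part on IL-33 replicate 6. This tumor combined the highest Hmox1 and the highest Fth1 of its group with its lowest Tfrc. It was kept in the r of −0.80 between Fth1 and Tfrc, which was not computed without it.

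Slc11a1 and Steap3 were the most opposed pair over 16 tumors (r = −0.82 and rho = −0.84, permutation p = 0.00014 and 0.00015, adjusted 0.00315 and 0.00675), and r stayed at −0.82 without both tumors (adjusted p = 0.0126, permutation test) and at −0.76 without the 2 farthest from the median of Slc11a1. It was −0.85 within the vehicle group (exact permutation p = 0.0066) and −0.80 within the IL-33 treatment group (exact permutation p = 0.013). On CPM without TMM factors the r was −0.50 over 16 tumors and −0.73 without both. Tfrc and Slc11a2, receptor and endosomal transporter, had r = 0.69 (permutation p = 0.00299, adjusted p = 0.0448), rho = 0.44 (permutation p = 0.0935, adjusted p = 0.263) and r = 0.65 without both tumors.

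**Figure D4:**
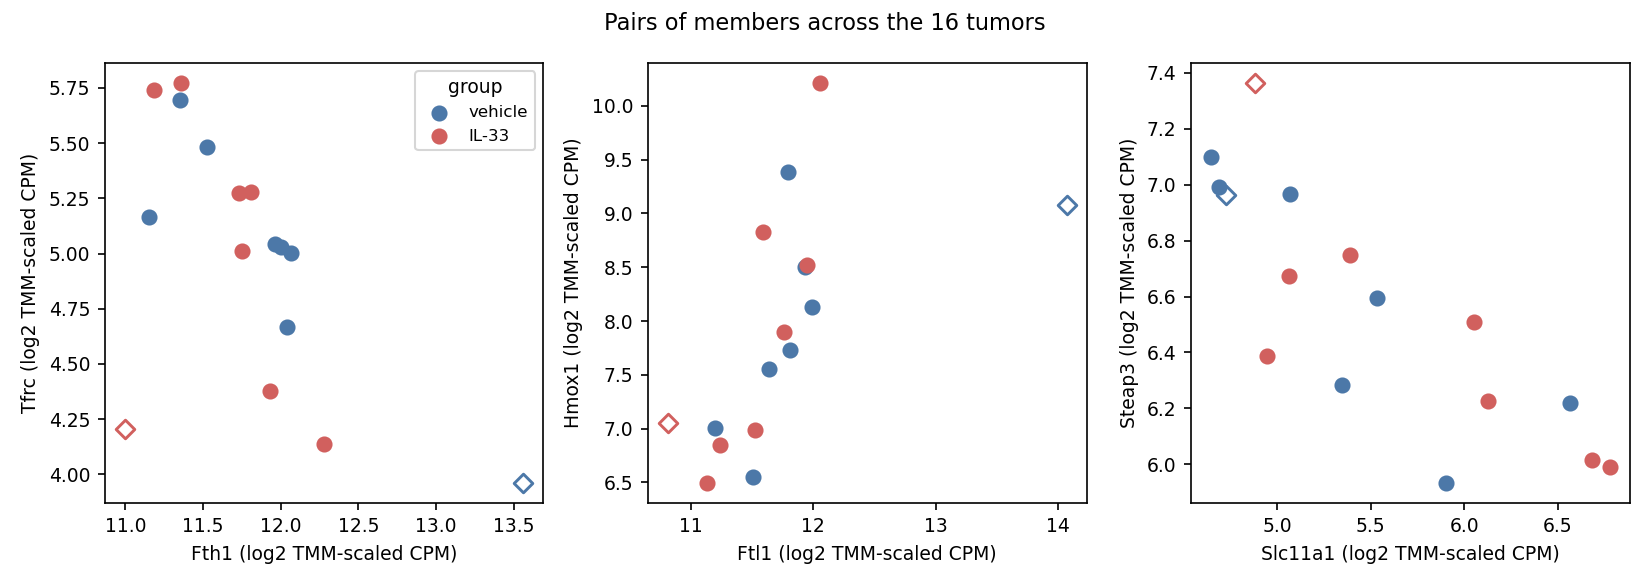
Levels of 3 pairs of members (log2 CPM scaled by TMM on both axes) in the vehicle tumors (blue) and IL-33 tumors (red); open diamonds are vehicle replicate 4 and IL-33 replicate 7. Among the filled points Fth1 and Tfrc fall along a line with r = −0.80, Ftl1 and Hmox1 with r = 0.78, and Slc11a1 and Steap3 with r = −0.82.

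Each member was also set against the mean log2 level of 7 marker lists, 70 relations in all. With 16 tumors 5 relations passed an adjusted p of 0.05 by permutation, and 3 did without both tumors. Only Steap3 with the proliferation genes (among them Rrm2 and Top2a) was in both sets. Its r was −0.70 and rho −0.83 over 16 tumors (permutation p = 1e-05 and adjusted p = 0.0007 for r), and −0.78 without vehicle replicate 4 and IL-33 replicate 7, the 2 tumors farthest from the median of the list (permutation p = 0.00111, adjusted p = 0.0425). The r was −0.75 within the vehicle group (exact permutation p = 0.0244) and −0.83 within the IL-33 treatment group (exact permutation p = 0.00957). On unscaled CPM it was −0.62 (adjusted p = 0.0976, permutation test), and none of the 70 relations passed there. With the group means removed 5 passed, namely Steap3 with proliferation, Steap3 and Tfrc with red blood cells, Tfrc with proliferation, and Trf with hepatocytes.

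With the red blood cell genes, Steap3 had an r of 0.70, Tfrc of −0.68 and Slc11a1 of −0.67 over 16 tumors, each with an adjusted p of 0.0466 in the permutation test, and rho of 0.63, −0.67 and −0.68. Leaving out both tumors, which had the highest red blood cell genes, gave r of 0.66, −0.42 and −0.66, with adjusted p-values of 0.113, 0.423 and 0.113. The red blood cell genes themselves had a difference of −1.33 between the groups (log2, IL-33 minus vehicle; exact permutation test, p = 0.0861), and of −1.24 without both (p = 0.0216 by the same exact permutation, or 0.126 when adjusted for 7 lists), with Hba-a1 and Hbb-bs the highest of them. The mean log2 level of the neutrophil genes had differences of 0.70 and, without both tumors, 0.84 (exact permutation test, p = 0.108 and 0.0361, adjusted p = 0.126 for the latter). In this mean genes of low level weigh as much as abundant ones. Mpo was at 6.38 to 7.83 CPM in IL-33 replicates 4, 5 and 7 and at 0.874 or less in all other tumors. The more abundant S100a9 covered 14.5 to 61.2 CPM in IL-33 tumors and 11.1 to 56.6 in vehicle tumors other than replicate 4. The part of either cell type in the member levels was not tested. Without both tumors, Slc11a1 had r = 0.76 and Fth1 r = −0.76 with proliferation (adjusted p = 0.0425 each, permutation test), against 0.49 and −0.01 over all 16.

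The macrophage list (C1qa and C1qb highest) summed to between 660.4 and 2419 CPM and had no difference beyond the spread between groups (difference −0.0044 on the log2 scale, exact permutation test, p = 0.982, and p = 0.997 without both tumors). With it Slc40a1 had r = 0.52 and Slc11a1 r = 0.50, and neither passed the adjustment. For Trf, r with the epithelial list was 0.91 (adjusted p = 0.0466, permutation test) and rested on IL-33 replicate 7, where Epcam was at 98.8 CPM, since it was 0.50 without both tumors. With the hepatocyte list Trf had r = 0.77 and, without both tumors, 0.71, and neither passed (adjusted p = 0.0664 and 0.0994, permutation test). Within the vehicle group r was 0.83 (exact permutation p = 0.0092) and within the IL-33 treatment group 0.97 (exact permutation p = 0.00377), and with the group means removed it was 0.83 and passed (adjusted p = 0.0042, permutation test). Without vehicle replicate 2 and IL-33 replicate 7, the 2 farthest from the median of the list, r was 0.49 (permutation p = 0.0769), so the relation rests on those tumors.

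**Figure D5:**
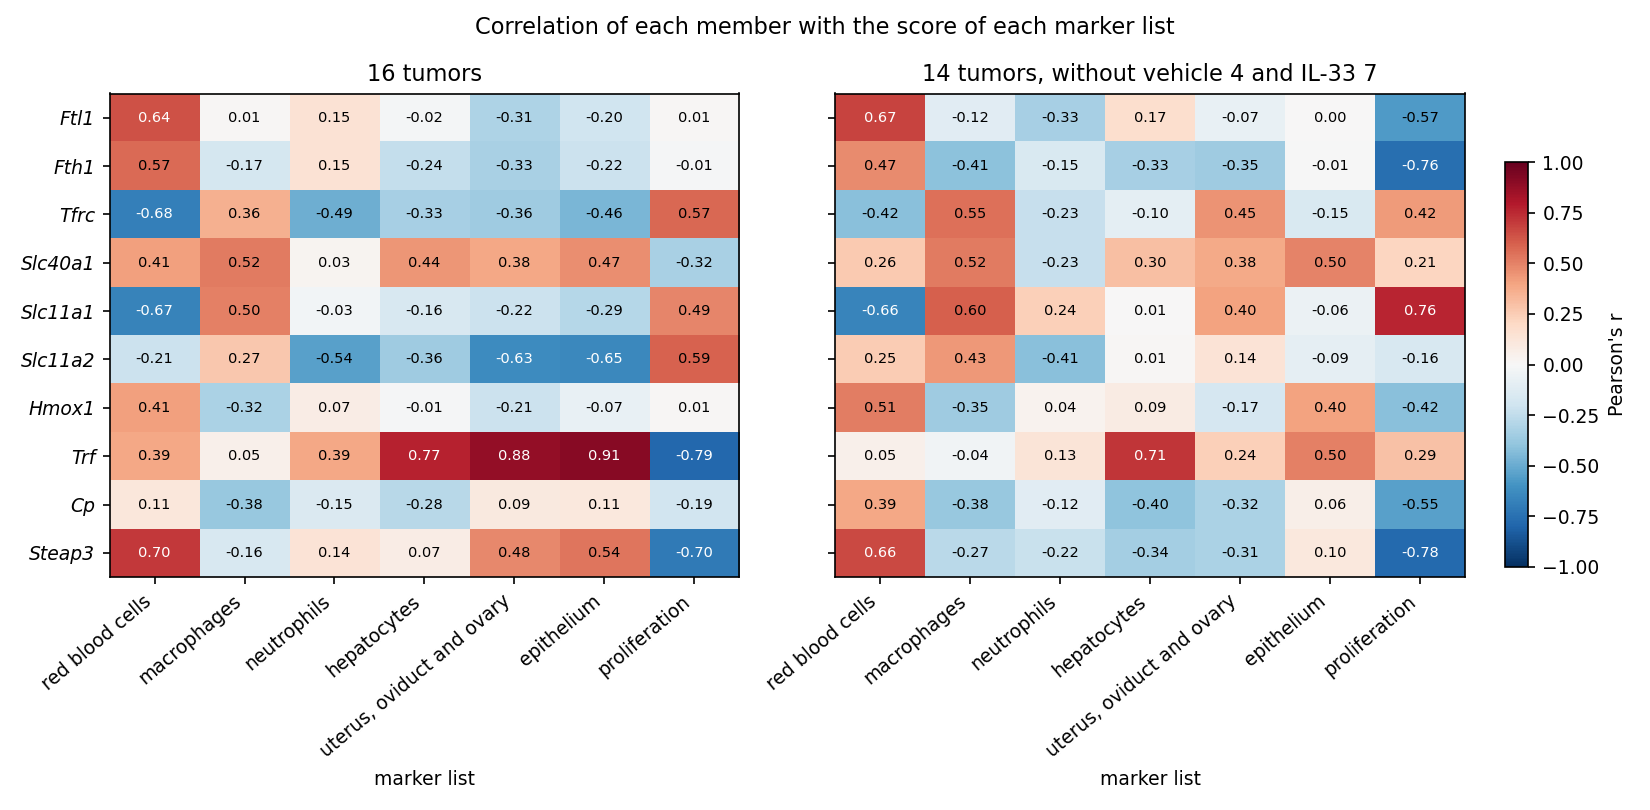
Pearson's r (color and number, from −1 to 1) between each member and the mean log2 level of each marker list over 16 tumors (left) and over 14 tumors without vehicle replicate 4 and IL-33 replicate 7 (right). Steap3 against proliferation is at −0.70 and −0.78, whereas Trf against epithelium goes from 0.91 to 0.50.

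The members were placed among 73 further genes of iron and heme, in 8 lists, of which 70 were tested. Of the 70, 5 had an unadjusted p under 0.05 and were higher in the IL-33 tumors (9.99% of all genes) and 1 was lower (1.17% of all genes), and none passed after adjustment. The median log2 fold change was 0.01 over the 70 against 0.06 over all genes. Without vehicle replicate 4 and IL-33 replicate 7, 3 of 69 had an unadjusted p under 0.05, against 4.19% of the 15744 genes then tested, and none of these 3 was among the former 6.

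All 5 that were higher had their top value in IL-33 replicate 7. Ltf, which encodes the iron-binding lactoferrin of granules and secretions, was at 361.1 CPM there and at 4.03 or less in every other tumor (log2 fold change 6.04, standard error 1.73, adjusted p = 0.418, edgeR). Heph, the membrane-bound relative of ceruloplasmin, was at 59.0 CPM there against 2.40 or less, with a log2 fold change of 3.27 that was 0.67 without both tumors. The duodenal reductase gene Cybrd1 (16.4 CPM against 0.494 or less), Slc22a17, a receptor for lipocalin-bound iron (40.9 against 1.26 or less), and Flvcr2, a relative of the heme exporter FLVCR1 (4.62 against 0.185 or less), had the same pattern. Hpx, the plasma carrier of heme, was the gene that was lower, with its top value of 6.81 CPM in vehicle replicate 2, the tumor with the highest hepatocyte genes, and 0.76 CPM or less in the IL-33 tumors.

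Of the 13 uptake genes the highest was Scara5, a ferritin receptor, at 460.5 ± 223.5 CPM in the vehicle group and 436.1 ± 199.8 in the IL-33 treatment group (SD, n = 8 each). Among the 4 genes of ferritin turnover and iron chaperones, the chaperone Pcbp1 was at 398.4 ± 61.5 and 393.3 ± 44.0 CPM, and Ncoa4, which leads ferritin to the lysosome, at 98.9 ± 35.0 and 117.3 ± 33.4 CPM (SD, n = 8 each), with a low of 16.4 CPM (vehicle replicate 4) and a high of 193.4 CPM (IL-33 replicate 7). Ftmt, the mitochondrial ferritin, had no count in any tumor. No gene of this list had an unadjusted p under 0.05.

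The 11 export and control genes held Hfe, a partner of the transferrin receptors, as the highest, at 22.3 ± 9.87 and 30.6 ± 8.69 CPM (SD, n = 8 each; log2 fold change 0.40, standard error 0.22, adjusted p = 0.5264, edgeR). Hamp, the liver hormone hepcidin, which brings ferroportin down, had 0 counts in all 16 tumors, and 3 counts would be 0.124 to 0.212 CPM in these libraries. Of the 3 iron regulatory genes Fbxl5, the iron-sensing ubiquitin ligase subunit, was the most abundant, at 92.8 ± 12.4 and 90.4 ± 8.64 CPM (SD, n = 8 each).

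Among 15 genes of heme uptake and breakdown, Lrp1, the receptor for heme bound to hemopexin, was the highest, at 2397 ± 840 and 2065 ± 614 CPM (SD, n = 8 each; adjusted p = 0.758, edgeR). In the 12 genes of heme synthesis Alas2, the first enzyme of the pathway in red cell precursors and the 1 further gene with a 5′ UTR match to the element shown above, had the smallest p. It was at 12.8 ± 15.4 CPM in the vehicle group and 5.62 ± 11.7 in the IL-33 treatment group (SD, n = 8 each), with its top values of 49.2 and 34.4 in the tumors that stood apart. Without both, the vehicle values ran from 1.98 to 14.6 CPM and the IL-33 values from 0.351 to 3.92, a log2 fold change of −2.29 (standard error 0.58, unadjusted p = 0.00123 and adjusted p = 1.00 by edgeR). Alad, a later enzyme, was the highest of the list at 68.5 ± 32.7 and 64.3 ± 26.3 CPM (SD, n = 8 each).

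Of 7 mitochondrial genes, Slc25a37, the importer of iron, was at 61.2 ± 9.72 CPM in the vehicle group and 71.4 ± 14.1 in the IL-33 treatment group, and Glrx5, which passes on iron-sulfur clusters, at 67.7 ± 31.2 and 50.7 ± 20.04 CPM (SD, n = 8 each). Slc25a37 was 1 of the 3 genes with an unadjusted p under 0.05 without both tumors, with a log2 fold change of 0.24 (standard error 0.10). The third was Osgin1, from a list of 9 targets of NRF2, the factor that induces Hmox1 and both ferritin genes, at 0.39 (standard error 0.17). In that list Gclc was the highest, at 125.2 ± 85.2 and 164.2 ± 118.9 CPM (SD, n = 8 each), and with all tumors no gene of either list had an unadjusted p under 0.05.

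The genes whose levels were most like each member over the 16 tumors, among those with a mean of at least 1 CPM, are given as a description, and each r is computed from log2 CPM scaled by TMM. For Slc11a1 they were Clec4a3 (r = 0.97), Pou2f2 (0.97) and Cd53 (0.96), genes of leukocytes, and these stayed at 0.97, 0.97 and 0.97 without both tumors. Slc40a1 was closest to Tbxas1 (0.83), Creb3l1 (0.80) and Fndc1 (0.80), Hmox1 to Itpk1 (0.86), Slc22a4 (0.86) and Pgm1 (0.84), and Steap3 to Arhgef19 (0.92), Lhfpl2 (0.91) and Trp53inp2 (0.89). Tfrc was closest to Cep76 (0.94), Dkc1 (0.93) and Taco1 (0.92), Slc11a2 to Hsph1 (0.92), Eif5 (0.91) and Tsr1 (0.91), and Cp to Stk38 (0.91), Col6a3 (0.90) and Trib2 (0.90). The ferritins, high in vehicle replicate 4, were closest to Prkcsh (0.98), Stx4a (0.97) and Renbp (0.97) for Ftl1, and Emc9 (0.97) and Rpusd1 (0.97) were among the closest to Fth1. Trf, high in IL-33 replicate 7, was closest to Nrxn2 (0.96), Gata4 (0.96) and Nkd1 (0.95), which were at 0.87, 0.79 and 0.88 without both tumors.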

How the data were processed

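RNA from 16 tumors, 8 per group, was selected by poly(T), fragmented and sequenced. The authors deposited raw counts of reads per gene for each tumor, and their processing notes name HISAT2, featureCounts and mm10; versions, annotation release and strand setting are not given in the sources used here. Groups and replicate numbers came from the labels. Genes were named with GENCODE M21 (GRCm38); 43 of 22298 identifiers had no name (0.00434% of counts).

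CPM is the count relative to the tumor's total. Genes with at least 10 counts over all tumors were tested with edgeR 4.0.16 (R 4.3.3; TMM, glmQLFit, glmQLFTest, Benjamini-Hochberg adjustment), which was checked on simulated data. The standard error is the log2 fold change divided by the root of the F statistic. Alternatives were DESeq2 1.42.0, limma 3.58.1 (voom with sample weights), upper-quartile normalization, other filters, a replicate block, each tumor left out, and vehicle replicate 4 and IL-33 replicate 7 left out. Single values and ratios were compared by two-sided exact permutation tests over 12870 assignments (smallest p 0.000155) and correlations by 100000 permutations (scipy 1.17.1, numpy 2.4.6). Levels per kilobase used the longest principal transcript. Lengths and member pairs were examined after the values had been seen. The members and lists were chosen with earlier results of these data known. Of the other iron and heme genes, those with an unadjusted p under 0.05, the highest mean CPM or the smallest p of their list are named, with genes at 0. Intervals were not computed, and floors cover counting error only. A gene among those most like Fth1 is not reported here.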

Additional observations from a re-analysis of the deposited data

Results flagged for a closer look

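Values of 8 tumors in a group were checked with Dixon's criterion. It flags a highest or lowest tumor whose distance to the next is a large share of the range of the group. Chance gives a flag in about 1 of 20 groups of independent, normally distributed values. That rate need not hold here, since CPM were taken without logarithm and members vary together. The values were those of members, ratios and the 6 further genes with an unadjusted p under 0.05. Those 6 had been chosen by their p in these same tumors, so flags for them are not independent of the choice. Of the 40 groups of values, 17 held a flagged tumor.

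Vehicle replicate 4 was one for Ftl1 (10994 CPM, group median 3706), for Fth1 (7743 CPM, median 4168), for Slc11a2 as the lowest (25.6 CPM, median 50.9) and for the log2 ratio of Tfrc to Fth1 as the lowest (−9.60, median −6.95). IL-33 replicate 7 was one for Trf (1009 CPM, median 115.6), Steap3 (204.6 CPM, median 82.4), Cybrd1 (16.4 CPM), Slc22a17 (40.9 CPM), Ltf (361.1 CPM), Heph (59.0 CPM) and Flvcr2 (4.62 CPM). Hmox1 had one in both groups, at 685.4 CPM in vehicle replicate 3 and 1061 CPM in IL-33 replicate 6. Vehicle replicate 2 was farthest for Trf (216.1 CPM), Ltf (2.76 CPM) and Hpx (6.81 CPM), and vehicle replicate 6 for Flvcr2 (0.185 CPM).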

How the results depend on the processing

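The group difference of each member missed an adjusted p of 0.05 in all fits. The count of members with an unadjusted p under 0.05 was 0, and 0 to 1 with each tumor left out: Ftl1 without vehicle replicate 1 or 8, Trf without vehicle replicate 2, and Slc11a1 without vehicle replicate 7. Over all genes 1876 had an unadjusted p under 0.05; it was 691 with DESeq2, 642 with filterByExpr, 966 with limma voom, 318 with the replicate block, 659 without both tumors and 651 to 2163 with each left out, the lowest without IL-33 replicate 7. For the wider genes the count of 6 was 2 with DESeq2, 2 with filterByExpr, 2 with the replicate block, 3 without both tumors and 3 to 9 with each left out. Replicate numbers do not pair the tumors: 4 of 8 same-numbered pairs had r over 0.1 (−0.318 to 0.351), and 1 vehicle tumor correlated best with its own number.

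The log2 ratio of Slc11a1 to Slc11a2 passed 0.05 with all tumors (0.74) and not without both (0.72) or with the replicate block (0.74, exact p = 0.0859); with each tumor left out it was 0.62 to 0.90, and the call was lost in 10 of 16 fits (without vehicle replicate 3, 4, 5, 6 or 8, or IL-33 replicate 3, 4, 5, 7 or 8). That of Tfrc to Fth1 was −0.063 without both and −0.082 to 0.51 with each left out, negative without vehicle replicate 4. Marker correlations numbered 5, with 0 on unscaled CPM, 3 without both tumors and 5 with group means removed. Without both tumors, an alternative added after the data were seen for the marker lists, the difference turned for epithelium (−0.12) and proliferation (0.038). Log2 fold changes that turned were those of Tfrc (−0.049 with the replicate block, −0.11 to 0.14 with each left out, and −0.030 in the permutation difference on TMM-scaled CPM), Hmox1 (−0.29 with limma voom, −0.12 with the replicate block, −0.50 to 0.39 with each left out) and Trf (−0.055 with DESeq2, −0.0081 without both, −0.041 to 1.05 with each left out); the cause was not tested.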
